A study of Homo sapiens with 6 samples.

Results

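The aryl hydrocarbon receptor (AHR) pathway and the CYP1 genes were followed through 7 genes, AHR, ARNT, AHRR, TIPARP, CYP1A1, CYP1A2 and CYP1B1, matched by symbol among the 19974 annotated genes of the count table. RNA was sequenced from Huh7, a human hepatocellular carcinoma cell line, as 3 libraries of the parental line (Huh7 P) and 3 of its lenvatinib-resistant derivative (Huh7 LR). Huh7 LR was grown out of Huh7 P under stepwise rising doses of lenvatinib, an oral inhibitor of several receptor tyrosine kinases, over months and was then kept in drug. It is a single derived line, so the comparison is between these lines and not between resistant and sensitive cells in general. The study describes the 3 samples of each line as independent, and the sources used here do not say if the resistant cells were in drug when RNA was taken. The comparison asks which of these genes differed in messenger RNA between the lines.

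AHR is a ligand-activated transcription factor that waits in the cytoplasm bound to chaperones. Once a ligand such as a polycyclic aromatic hydrocarbon or a tryptophan metabolite binds, AHR enters the nucleus, pairs with ARNT and binds DNA at sites with the core letters GCGTG. CYP1A1, CYP1A2 and CYP1B1 are its classical targets and encode cytochrome P450 enzymes that oxidise many drugs, oestrogens and hydrocarbons, while its targets AHRR and TIPARP restrain it. In normal liver CYP1A2 is the abundant family 1 enzyme and CYP1A1 is low until it is induced.

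Total counts per library ran from 62738937 to 71427573 for the parental line and from 63233655 to 70768720 for the resistant line, so that 3 counts corresponded to between 0.042 and 0.0478 CPM (counts per 1e+06 counts of the library). A difference was called from edgeR's quasi-likelihood test at a Benjamini-Hochberg adjusted p under 0.05 over the 17531 genes and loci tested, and this rule holds for every adjusted p below unless another test is named. The hepatocyte markers ALB, AFP, APOA1, TF, SERPINA1, TTR, HNF4A and KRT18 were all tested, 4 rose (ALB, TTR, APOA1 and TF) and none was called lower, AFP being at a log2 fold change of -0.23 (adjusted p = 0.0923). Their summed level was 39652 to 49368 CPM in Huh7 P and 51624 to 53554 CPM in Huh7 LR. Markers of other cell types also moved, with the part of those shifts in the results below not tested. Of 6 leukocyte markers 3 were tested and 1 fell, the sum going from between 62.4 and 67.7 CPM to between 10.1 and 14.0 CPM with HLA-DRA and TYROBP at 0. That sum was mostly LYZ, which fell from 63.7 to 9.19 CPM, while CD14 and CD74 were at log2 fold changes of 0.53 and 0.52 and did not pass. Of 4 endothelial markers, PECAM1 rose and VWF, with 0, 0 and 8 parental counts, passed the filter on low counts only through Huh7 LR, the list going from a sum between 38.8 and 47.5 CPM to one between 65.0 and 71.2 CPM with CDH5 and KDR at 0. Of 6 fibroblast markers 2 were tested and 2 rose, their sum reaching 5.02 to 8.02 CPM from 2.16 to 2.28 CPM with DCN at 0. Of 3 cholangiocyte markers 2 were tested and 1 fell, the sum being 234 to 260 CPM in Huh7 P and 195 to 221 CPM in Huh7 LR.

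The letters GCGTG are shown first where they occur in the windows before the members' RefSeq start sites, because this is the core that AHR and ARNT bind. The RefSeq sequences of GRCh38.p14 list start sites for 6 of the 7 genes, all but CYP1B1, with 9 windows of 250 bases. Each line below gives 30 bases of the gene's own strand 5′ to 3′, and capitals mark the core, which reads CACGC where the match lies on the opposite strand.
CYP1A1: ccagggaaggagGCGTGgccacacgtacaa
AHRR start 1: ggcgggcggctcGCGTGccggggtggggca
AHRR start 2, distal: ggcGCGTGacaggcaggggccaccctctga
AHRR start 2, proximal: gcagaagggtggGCGTGtgcgcgcgttctc
TIPARP start 1, distal: cgcgagaaaggaCACGCcccctcgcgggag
TIPARP start 1, proximal: cgaacgaacgcgCACGCgcgcgcagggggc
The CYP1A1 stretch is chr15:74725568-74725597 on the minus strand, and its core lies at bases -57 to -53 from the start. The stretch at AHRR start 1 is chr5:321672-321701 on the plus strand with its core at bases -30 to -26. At AHRR start 2 the stretches are chr5:322360-322389 and chr5:322556-322585, with cores beginning at bases -247 and -42. Those of TIPARP are chr3:156674370-156674399 and chr3:156674436-156674465 on the plus strand, with cores beginning at bases -208 and -142. The windows of AHR, ARNT, CYP1A2 and the other 2 TIPARP starts did not hold the letters. GENCODE annotates longer transcripts that begin further upstream, so that 82 of the 250 bases of the CYP1A1 window, its core included, and 248 of those of TIPARP start 1 are also exon of the same gene. Searched on both strands, GCGTG was in 4 of the 9 windows and in 32.2% of all 35116 RefSeq windows of that length. The longer form TNGCGTG, which contains GCGTG, was in 1 member window, that of AHRR start 1, and in 4.52% of all windows. A match describes letters only, and AHR-bound enhancers that lie further from a gene are outside these windows.

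Of the 7 genes, all were tested, 5 were higher in Huh7 LR and 0 were lower, where 23.3% of all genes and loci tested were higher and 22.4% lower. By DESeq2 and limma, and at an unadjusted p under 0.05 in edgeR, the number lower was also 0. The 5 were AHR, ARNT, TIPARP, CYP1A1 and CYP1A2, of which CYP1A2 passed the filter on low counts only through Huh7 LR and lost its call in 7 of 11 alternatives. In each of the 5 the lowest resistant library exceeded the highest parental one, as in 28.2% of all tested. The other 2, AHRR and CYP1B1, overlapped between the lines, where 55.9% of all tested did not overlap in one direction or the other and 45.7% were called in either. The study used a p under 0.001 with a change of more than 2-fold, without saying if its p was adjusted. With the adjusted p in that place, a threshold which 4.43% of all tested passed upwards and 1.78% downwards, CYP1A1 alone of the 7 passed. The median log2 fold change of the 7 was 0.43, beside 0.0046 over all tested.

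**Figure D1:**
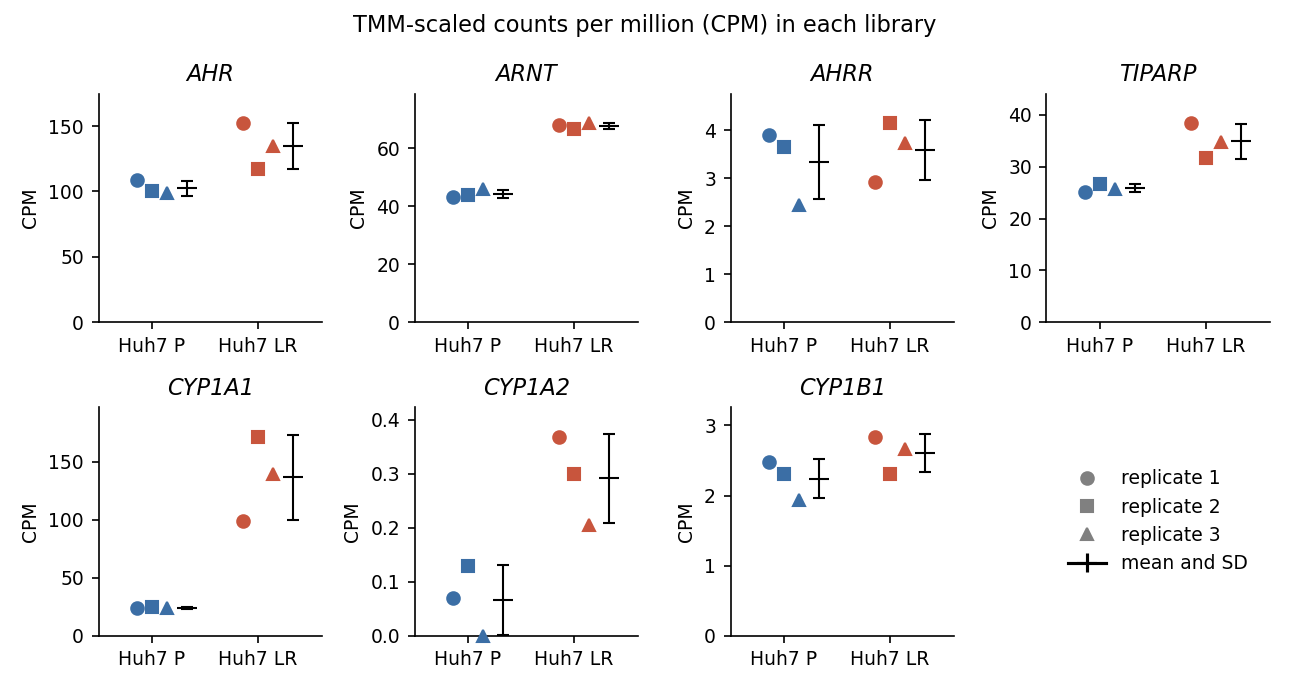
Each panel plots 1 gene's TMM-scaled CPM (vertical axis from 0, scale differing between panels) in the 3 Huh7 P libraries (blue) and the 3 Huh7 LR libraries (red), with symbols for the replicate numbers and the mean and SD in black. CYP1A1 rises from 24.0 to 136 CPM, AHR, ARNT and TIPARP separate by smaller steps, and the libraries of AHRR and CYP1B1 overlap between the lines.

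AHR, the receptor (ENSG00000106546, chr7:16916359-17346152, plus strand, GENCODE release 29 on GRCh38), was measured at 109, 100.2 and 98.4 CPM in the Huh7 P libraries and at 152, 117 and 134 CPM in the Huh7 LR libraries. The lowest Huh7 LR library was above the highest Huh7 P library. Huh7 LR exceeded Huh7 P by 0.39 on the log2 scale (SE 0.094, 95% interval 0.18 to 0.60, adjusted p = 0.00595), a 1.31-fold difference. AC019117.3, annotated as a protein-coding gene, shares 2373 exon bases with AHR on the same strand, or 29.4% of the AHR exons, and carried 7, 5 and 0 counts in Huh7 P and 0 in every Huh7 LR library, against at least 6181 for AHR.

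ARNT, the partner with which AHR binds DNA and which also serves the hypoxia-inducible factors (ENSG00000143437, chr1:150809705-150876768, minus strand), stood at 43.2, 43.7 and 45.9 CPM in the parental libraries and at 67.9, 66.5 and 68.5 CPM in the resistant ones. Both sets of libraries were tight and far apart. The log2 fold change was 0.61 (SE 0.065, 95% interval 0.47 to 0.76, adjusted p = 2.94e-05), or 1.53-fold. In FPKM (fragments scaled by transcript length and library size), ARNT was 65.4% ± 6.52 of AHR in Huh7 P and 79.1% ± 11.3 in Huh7 LR (SD, n = 3 each, exact permutation test, two-sided p = 0.2). With 3 libraries against 3 that test cannot give a p under 0.1.

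TIPARP, an ADP-ribosyltransferase that AHR induces and that in turn limits AHR (ENSG00000163659, chr3:156673235-156706770, plus strand), gave 25.2, 26.7 and 25.6 CPM in Huh7 P and 38.4, 31.6 and 34.7 CPM in Huh7 LR. No library of one line reached into the other. TIPARP rose by a log2 fold change of 0.43 (SE 0.086, 95% interval 0.24 to 0.62, adjusted p = 0.00184), or 1.35-fold. Its FPKM was 38.2% ± 2.50 of that of AHR in Huh7 P and 39.5% ± 1.54 in Huh7 LR (SD, n = 3 each, exact permutation test, two-sided p = 0.6).

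AHRR, the repressor that competes with AHR for ARNT (ENSG00000063438, chr5:304176-438291, plus strand), was low, at 3.90, 3.65 and 2.45 CPM in Huh7 P and 2.91, 4.14 and 3.72 CPM in Huh7 LR. The lines overlapped, with Huh7 P replicate 3 lowest of all 6 libraries. The log2 fold change was 0.11 (SE 0.20, adjusted p = 0.695), and its 95% interval from -0.34 to 0.55 leaves room for anything between 0.791-fold and 1.47-fold. Without Huh7 P replicate 3 the sign turned, to -0.074. AHRR shares 244 exon bases on the same strand with PDCD6, which had 9037 counts over the Huh7 P libraries where AHRR had 665 and did not pass the test (log2 fold change 0.10, adjusted p = 0.309). As a share of AHR in FPKM, AHRR was 5.37% ± 1.65 in Huh7 P and 4.19% ± 1.27 in Huh7 LR (SD, n = 3 each, exact permutation test, two-sided p = 0.4).

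CYP1A1, the family 1 P450 best known for induction by AHR ligands (ENSG00000140465, chr15:74719542-74725610, minus strand), was counted 1707, 1536 and 1534 times in the parental libraries and 6427, 11998 and 9485 times in the resistant ones. On the CPM scale these were 23.8, 24.9 and 23.5 in the parental libraries and 98.6, 171 and 139 in the resistant ones. The parental libraries lay within a narrow band, whereas the resistant libraries were all far above it and spread widely among themselves. The log2 fold change of 2.50 (SE 0.16, 95% interval 2.15 to 2.86, adjusted p = 1.13e-06) amounts to 5.67-fold, with an interval from 4.43-fold to 7.26-fold. It was the 250th highest log2 fold change of the 17531 tested. In FPKM, CYP1A1 went from 8.82 ± 0.381 to 51.0 ± 13.5 (SD, n = 3 each), and so from above 55.8% to above 91.3% of the annotated genes tested. Relative to AHR, its FPKM was 55.7%, 60.4% and 58.8% in the parental libraries and 162%, 371% and 254% in the resistant ones, without overlap (exact permutation test, two-sided p = 0.1, the smallest possible).

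The spread of CYP1A1 among the resistant libraries ran in another order than AHR. Huh7 LR replicate 1 had the highest AHR, at 152 CPM, and the lowest CYP1A1, at 98.6 CPM. Huh7 LR replicate 2 had the lowest AHR, at 117 CPM, and the highest CYP1A1, at 171 CPM. TIPARP had the order of AHR, with 38.4 CPM in replicate 1 and 31.6 CPM in replicate 2. These are orders of 3 libraries and were not tested.

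CYP1A2, the enzyme that clears caffeine (ENSG00000140505, chr15:74748844-74756202, plus strand), was barely detected, with 5, 8 and 0 counts in the parental libraries and 24, 21 and 14 in the resistant ones. All Huh7 LR libraries were above the others, but at levels of 0.368, 0.300 and 0.205 CPM. The log2 fold change was 2.11 (SE 0.74, 95% interval 0.49 to 3.74, adjusted p = 0.036). The value moved to 1.54 without Huh7 P replicate 3, to 2.96 without Huh7 P replicate 2 and to 0.71 by limma on log2(FPKM + 0.1) without a filter. The call was lost with 5 of the 6 libraries left out in turn (highest adjusted p = 0.106, without Huh7 LR replicate 1) and by DESeq2's Wald test (adjusted p = 0.0598). CYP1A2 starts 23234 bases from CYP1A1, and the coding sequences of the pair are identical at 80.6% of 1530 aligned bases, with a longest identical run of 40 bases. How reads that match both genes were assigned is not given in the sources used here, and the CYP1A2 counts were 0.293%, 0.521% and 0% of the CYP1A1 counts in the parental libraries and 0.373%, 0.175% and 0.148% in the resistant ones (exact permutation test, two-sided p = 1). Its change is therefore uncertain.

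CYP1B1, which hydroxylates oestradiol and is mostly expressed outside the liver (ENSG00000138061, chr2:38066973-38109902, minus strand), gave 2.48, 2.30 and 1.94 CPM in Huh7 P and 2.84, 2.31 and 2.67 CPM in Huh7 LR. The lines overlapped. The log2 fold change was 0.22 (SE 0.17, 95% interval -0.17 to 0.60, adjusted p = 0.338), and the interval ends at 1.51-fold, under the lower bound of 4.43-fold for CYP1A1. RMDN2 on the opposite strand shares 96 exon bases, 1.6% of the CYP1B1 exons, and fell by 0.74 on the log2 scale (adjusted p = 5.42e-04), from 443, 378 and 435 counts to 244, 264 and 260. The library kit does not mark strand, so reads within those 96 bases cannot be assigned to either gene. The same holds for 678 bases, 11.3% of the CYP1B1 exons, shared with the antisense gene CYP1B1-AS1, which was not analysed here.

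**Figure D2:**
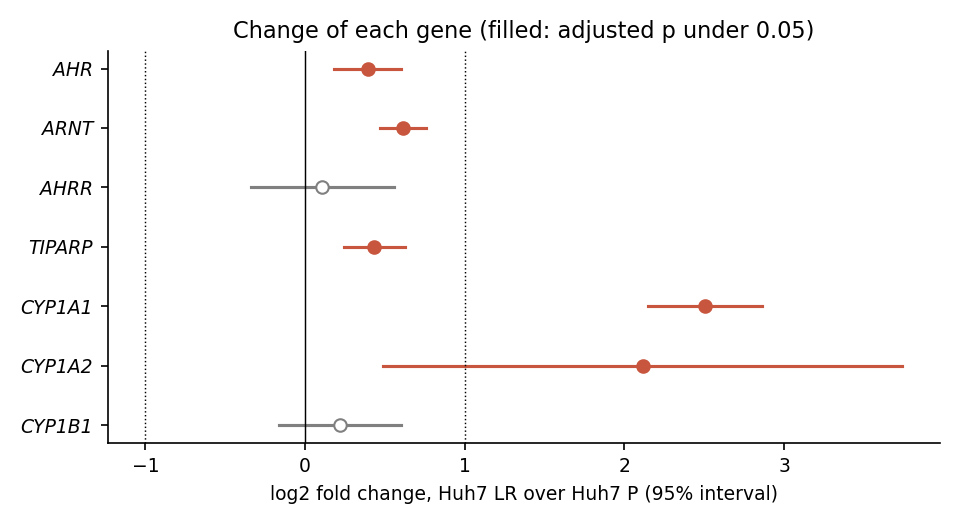
Points give the edgeR log2 fold change of Huh7 LR over Huh7 P (horizontal axis) for each of the 7 genes with its 95% interval, filled where the adjusted p was under 0.05, and dotted lines mark 2-fold. CYP1A1 at 2.50 stands clear of the 2-fold line, CYP1A2 has an interval from 0.49 to 3.74, and the intervals of AHRR and CYP1B1 cross 0.

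Ordered by FPKM, Huh7 P read AHR (15.2), ARNT (9.88), CYP1A1 (8.82), TIPARP (5.77), AHRR (0.824), CYP1B1 (0.391) and CYP1A2 (0.0206). The ranges of ARNT, from 9.04 to 10.4, and CYP1A1, from 8.39 to 9.11, overlapped, and those of the other neighbours in the order did not. Huh7 LR read CYP1A1 (51.0), AHR (20.2), ARNT (15.8), TIPARP (7.95), AHRR (0.824), CYP1B1 (0.463) and CYP1A2 (0.0971), with no overlap between neighbours. CYP1A1 moved from the third place to the first, and the order of the other 6 was the same in both lines. Within the summed FPKM of the 3 CYP1 genes, CYP1A1 made up 95.6% ± 0.534 in Huh7 P and 98.8% ± 0.460 in Huh7 LR (SD, n = 3 each, exact permutation test, two-sided p = 0.1). CYP1B1 went from 4.22% ± 0.395 to 0.959% ± 0.360 (SD, n = 3 each, exact permutation test, two-sided p = 0.1). The CYP1A2 share was 0.217% in Huh7 P and 0.204% in Huh7 LR, so the CYP1A1 and CYP1B1 shares nearly mirror each other. Their tests are therefore not separate results. The FPKM of CYP1B1 itself did not fall, being 0.391 in Huh7 P and 0.463 in Huh7 LR.

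CYP1A1 also changed its place beside the P450 genes of families 2 and 3, which were taken by symbol whatever their substrates. Of the 21 family 2 and family 3 genes 19 were tested, 11 rose and 3 fell, or 57.9% and 15.8% beside the 23.3% and 22.4% of all tested, with a median log2 fold change of 0.76 beside 0.0046. With each library left out in turn, 9 of the calls higher and 2 of the calls lower held throughout. In Huh7 P, CYP2S1 at 21.4 FPKM and CYP2R1 at 10.0 FPKM were above CYP1A1, and in Huh7 LR none was. Only CYP3A43 (log2 fold change 3.52, adjusted p = 0.00163) and CYP3A4 (2.52, adjusted p = 3.42e-04) had larger log2 fold changes than CYP1A1, both at under 0.4 FPKM in either line. Like CYP1A2 they passed the filter on low counts only through Huh7 LR, CYP3A43 with 9, 2 and 0 counts in the parental libraries and CYP3A4 with 8, 7 and 7, so their place above CYP1A1 is uncertain. CYP2U1 (2.33, adjusted p = 6.87e-05) and CYP2A7 (2.19, adjusted p = 3.32e-04) came next below CYP1A1. Named for their level after the values were seen, CYP3A5, a drug oxidase close to CYP3A4, rose by 2.02 (adjusted p = 1.67e-06) to 5.04 FPKM, and CYP2C19, which activates clopidogrel, rose by 1.37 (adjusted p = 3.99e-05) to 10.4 FPKM. The families hold near-identical copies, the CYP2A, CYP2C and CYP3A genes among them, between which reads may have been divided.

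In a measure chosen after the values were seen, CYP1A1 was set against the sum of all 24 listed P450 genes of families 1 to 3. It made up 14.2%, 14.3% and 13.3% of the summed FPKM in the parental libraries and 36.5%, 52.5% and 46.0% in the resistant ones. The lines did not overlap (exact permutation test, two-sided p = 0.1, the smallest possible). The other genes together went from 54.6 ± 0.394 to 61.2 ± 3.24 FPKM (SD, n = 3 each).

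**Figure D3:**
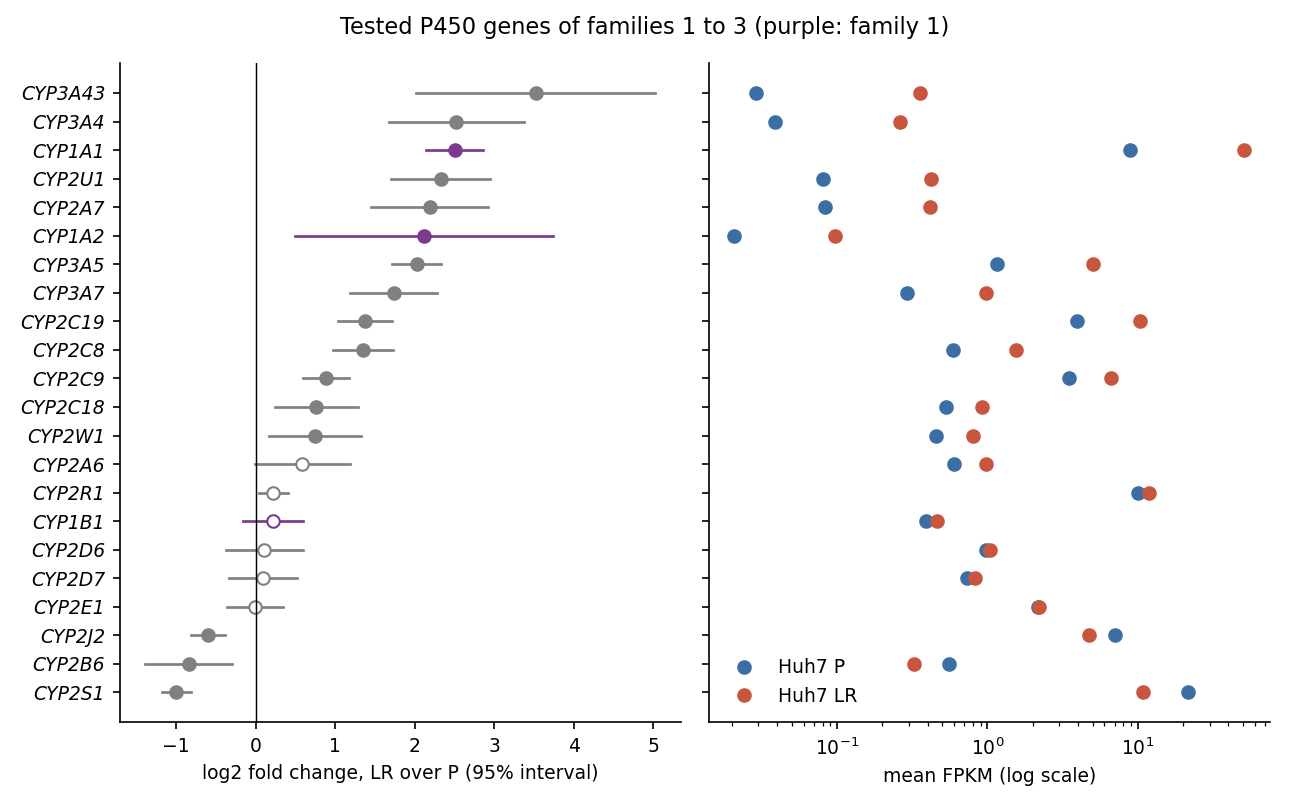
The left panel gives the log2 fold change of each tested P450 gene of families 1 to 3 with its 95% interval, filled where the adjusted p was under 0.05 and purple for the CYP1 genes, and the right panel gives the mean FPKM of each line on a log axis. CYP1A1 has the highest FPKM of all in Huh7 LR, at 51.0, while CYP3A43 and CYP3A4, which have larger log2 fold changes, stay below 0.4 FPKM.

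The wider pathway was read from 6 lists of 66 genes in all, of which 58 were tested, 17 rose and 16 fell, or 29.3% and 27.6% of those tested beside the 23.3% and 22.4% of all tested. The first list held the proteins that hold AHR in the cytoplasm or mark it for degradation. Of its 7 genes, all tested, 1 rose and 4 fell, with a median log2 fold change of -0.26. HSP90AA1, the inducible HSP90 chaperone, fell by 0.58 (adjusted p = 1.14e-04) from 1854 to 1240 CPM, and PTGES3, the p23 co-chaperone, fell by 0.48 (adjusted p = 5.09e-04). CUL4B, the scaffold of a ubiquitin ligase that uses AHR as a subunit, fell by 0.52 (adjusted p = 0.00249). STUB1, the chaperone-linked ubiquitin ligase CHIP, rose by 0.39 (adjusted p = 0.00295). HSP90AB1, the constitutive HSP90, fell by 0.26 (adjusted p = 0.0138), a call lost without Huh7 P replicate 2, Huh7 P replicate 3 or Huh7 LR replicate 3.

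Among 15 relatives of AHR and ARNT with the same bHLH-PAS domains, including their coactivators, 12 were tested, 3 rose and 1 fell, and the median was 0.019. NPAS2, a clock factor, fell by 0.54 (adjusted p = 2.64e-04). EPAS1, which encodes HIF-2α and competes for ARNT, rose by 0.33 (adjusted p = 0.0177), ARNTL2 by 0.30 (adjusted p = 0.0197) and NPAS1 by 0.74 (adjusted p = 0.0331). All 3 of these calls were lost without Huh7 P replicate 3. HIF1A, the other main hypoxia-inducible partner of ARNT, stood at -0.15 (adjusted p = 0.115). ARNT2, the close copy of ARNT, stood at 0 in Huh7 P and at a mean of 0.03 CPM in Huh7 LR, under the level of 3 counts.

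Further genes described as AHR targets did not move one way. Of 16, 13 were tested, 4 rose and 6 fell, with a median of -0.24. GSTA1 and GSTA2, glutathione transferases of the liver, rose by 4.07 and 3.40 (adjusted p = 7.70e-09 and 5.17e-09), and being near-identical copies they may share reads. ABCG2, the efflux pump BCRP, rose by 0.44 (adjusted p = 0.00232). NQO1, the quinone reductase that AHR and NRF2 both induce, fell by 0.74 (adjusted p = 1.50e-05) from 567 to 340 CPM, and NFE2L2, which encodes NRF2, fell by 0.42 (adjusted p = 0.00146). SLC7A5, the transporter that takes up tryptophan and kynurenine, fell by 1.54 (adjusted p = 5.19e-06) from 163 to 56.0 CPM. CYP2S1 fell by 1.00 (adjusted p = 5.75e-06), which is the opposite direction to CYP1A1. ALDH3A1, classed with CYP1A1 in the AHR gene battery, stood at -0.51 (adjusted p = 0.0612, passing without Huh7 LR replicate 3), and UGT1A6, whose exons are largely shared within the UGT1A locus, at 1.16 (adjusted p = 0.187). The UGT1A6 value rested on Huh7 LR replicate 3, with 178 counts beside 19 and 37 in the other resistant libraries, and was -0.31 without it. EREG, SERPINB2 and PTGS2 had 0 counts in all 6 libraries.

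**Figure D4:**
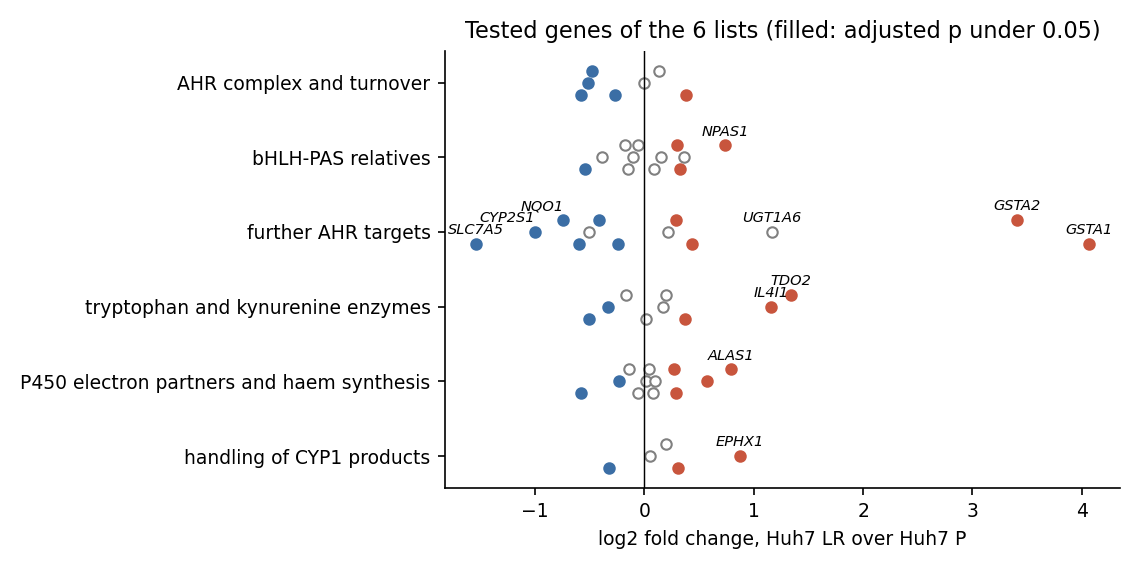
Each point is a tested gene of the 6 lists, placed by its log2 fold change of Huh7 LR over Huh7 P, filled red where it rose, filled blue where it fell at an adjusted p under 0.05 and open otherwise, with genes beyond 0.7 named and heights within a row only separating points. The further AHR targets span the widest range, from SLC7A5 at -1.54 to GSTA1 at 4.07.

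Enzymes of the tryptophan and kynurenine pathway make AHR ligands. Of 11, 9 were tested, 3 rose and 2 fell, with a median of 0.17, and none of the 5 calls was kept with every library left out in turn. TDO2, which opens the tryptophan ring in liver, rose by 1.34 (adjusted p = 0.0154, lost without Huh7 P replicate 2), from 0.264 to 0.673 CPM. IL4I1, a secreted amino acid oxidase, rose by 1.16 (adjusted p = 0.0472, lost with any library but Huh7 P replicate 2 left out), from 0.230 to 0.514 CPM. AADAT, which makes kynurenic acid, fell by 0.51 (adjusted p = 0.0217, lost without Huh7 P replicate 1 or 2 or without Huh7 LR replicate 1 or 3). HAAO rose by 0.38 (adjusted p = 0.0337, lost without Huh7 P replicate 2 or 3 or without Huh7 LR replicate 2 or 3). IDO1 and IDO2, the other ring-opening enzymes, had 0 counts in every library.

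P450 enzymes need haem and electrons. In the list of those partners all 12 genes were tested, 4 rose and 2 fell, and the median was 0.060. ALAS1, the rate-limiting enzyme of haem synthesis in liver, rose by 0.80 (adjusted p = 4.01e-06) from 59.4 to 103 CPM, and ALAD, the next enzyme, by 0.57 (adjusted p = 6.05e-05). CPOX, a later enzyme, fell by 0.58 (adjusted p = 8.44e-05). CYB5A, cytochrome b5, rose by 0.29 (adjusted p = 0.0044). POR, the reductase that passes electrons to every microsomal P450, rose by 0.27 (adjusted p = 0.00639). Of 5 genes that handle the products of CYP1 enzymes, all tested, 2 rose and 1 fell, with a median of 0.20. EPHX1, the microsomal epoxide hydrolase that acts on hydrocarbon epoxides after CYP1A1, rose by 0.88 (adjusted p = 5.15e-06) from 97.2 to 178 CPM. SULT1E1, the oestrogen sulphotransferase, fell by 0.32 (adjusted p = 0.0226, lost without Huh7 P replicate 2 or 3 or without Huh7 LR replicate 1 or 2).

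The nearest tested genes on either side of CYP1A1 and CYP1A2 were not called. Within 500 kb, 15 other annotated genes were tested, 6 rose and 2 fell, with log2 fold changes from -0.72 to 1.26 and a median of 0.16. Over all tested 23.3% were higher and 22.4% lower, which is the background for this count and for those around ARNT and AHR. The nearest gene on one side, EDC3, an mRNA decapping factor, stood at a log2 fold change of -0.051 (adjusted p = 0.686), and CSK, the kinase that restrains SRC on the far side of CYP1A2, at 0.084 (adjusted p = 0.434). Around ARNT 30 genes were tested, 10 rose and 2 fell, with CTSK beside it at 0.79 and SETDB1 on the other side at 0.023. Around AHR 7 were tested, 2 rose and 2 fell, AGR2 on one side falling by 1.07 and SNX13 on the other at 0.10. SOSTDC1, which was among those that rose, had 5, 9 and 5 counts in the parental libraries and passed the filter on low counts only through Huh7 LR. The 4 tested genes near TIPARP had log2 fold changes from -0.067 to 0.43, and the lowest adjusted p among them was 0.157, for LEKR1.

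**Figure D5:**
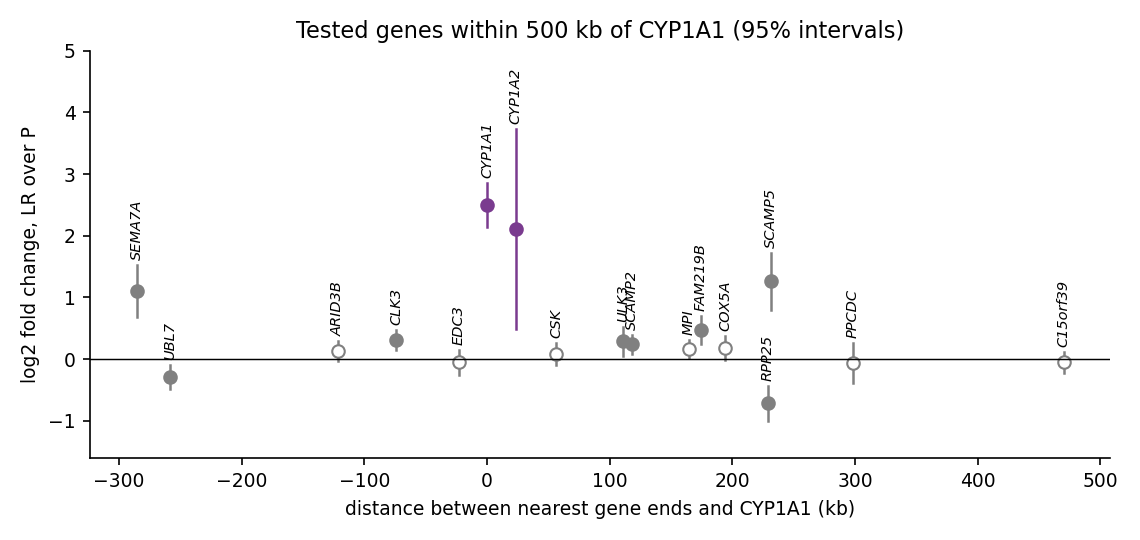
The log2 fold change of Huh7 LR over Huh7 P with its 95% interval is plotted for CYP1A1, CYP1A2 (purple) and the 15 other tested genes (grey, filled at an adjusted p under 0.05) against distance from CYP1A1 in kb. CYP1A1 and CYP1A2 stand at 2.50 and 2.11, and the nearest others, EDC3 and CSK, at -0.051 and 0.084.

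The genes whose levels were most like those of CYP1A1, by Pearson correlation of log2(CPM + 0.1) over the 6 libraries among 14052 annotated genes, were ADH1A (r = 0.9997), MYO5B (r = 0.9996) and CEBPA (r = 0.9995). As the libraries fall into the 2 lines, 1358 genes had r above 0.95, and the values describe a shared pattern only. ADH1A, an alcohol dehydrogenase of the liver, had 0 counts in each Huh7 P library and 37, 95 and 69 in Huh7 LR, so its r depends on the 0.1 CPM added before the log. MYO5B, a vesicle motor, rose by 0.78 (adjusted p = 1.97e-05), and CEBPA, a hepatocyte transcription factor, by 0.58 (adjusted p = 5.56e-05).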

How the data were processed

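RNA-seq of 3 Huh7 P and 3 Huh7 LR libraries (poly(A), NEBNext Ultra, a kit that does not mark strand) was analysed. The authors deposited 1 table with whole-number read counts, not normalised, and FPKM values, which they scaled for length and library size. The submitters' processing notes list TopHat2, Cufflinks, DESeq and the mouse build mm10, without roles, and the labels describe extraction from an insect. All 19974 gene identifiers of the table are human and in GENCODE release 29, from which the coordinates come. The aligner settings, annotation and strand option are not given in the sources used here. A further 6210 loci without a gene, with 2.86% to 3.35% of counts, entered the fit, and 34 text lines were left out.

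Counts were fitted in R 4.3.3 with edgeR 4.0.16 (filterByExpr, minimum count 10 and minimum total 15, TMM, quasi-likelihood, line as the only term). CPM were TMM-scaled. Standard errors come from the fitted change and its F statistic. Levels were compared between genes in FPKM. Alternatives were DESeq2 1.42.0, limma 3.58.1 on log2(FPKM + 0.1) or log2(FPKM + 1), other filters, a replicate block, overlapping genes summed and each library left out. On simulated counts of 17240 genes, 200 were changed, all drawn from genes with higher counts. There edgeR recovered 85% at 2-fold and 98% at 4-fold, and called 18 unchanged genes beside 183 recovered. In the data 45.7% of all tested were called. Recovery at that share, or at counts as low as those of CYP1A2, was not simulated. No pair of replicates agreed within sampling noise. Floors of 3 counts cover counting error only.

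Members and lists were chosen with earlier results of these data known. Named were all members, up to 4 called genes per list with the largest changes, genes tied to a member by role, the 3 genes most like CYP1A1 and the members' neighbours. FECH, KYAT3, CDKN1B, HES1 and STC2 were called but are not described, and some list genes are not reported here.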

Additional observations from a re-analysis of the deposited data

How the results depend on the processing

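AHR, ARNT, TIPARP and CYP1A1 kept direction and call under every alternative run, with log2 fold changes from 0.29 to 0.49, 0.59 to 0.67, 0.36 to 0.51 and 2.31 to 2.69. AHRR ran from -0.074 to 0.24 with single libraries left out, and CYP1A2 from 0.71 to 2.96 over its alternatives. The sum of CYP1B1 and RMDN2 was at -0.42 and is the 1 value called lower when overlapping genes were summed, but RMDN2 held 1256 of its counts in Huh7 P and CYP1B1 held 447, so it does not bear on the direction of CYP1B1. The number of members higher was 4 to 5 with single libraries left out. Over the 6 lists, with single libraries left out, 11 to 20 genes were higher and 10 to 16 lower, the fewest without Huh7 P replicate 3 and Huh7 P replicate 2. At an adjusted p under 0.001 and more than 2-fold, 776 of all tested were higher and 312 lower, beside 268 and 84 by limma on log2(FPKM + 1) and 353 and 120 on log2(FPKM + 0.1) without a filter, and the cause was not tested. On CPM in place of FPKM the CYP1A1 share rose by 6.52 percentage points, against 3.28, and the CYP1B1 share fell by 6.50, where on FPKM it fell by 3.26, which the omitted division by length moves. TNGCGTG had 1 match in the member windows where GCGTG had 6. With the replicate number as a block, 4089 genes and loci were higher and 4033 lower, beside 4093 and 3923, CYP1A1 was at 2.47, ALDH3A1 passed the test as lower and the lists had 16 higher and 17 lower. Same-numbered libraries had correlated deviations of 0.029, 0.0314 and 0.0317, under 0.1, so the numbers were not taken as pairs, although each library correlated best with its own number. CYP1A2, at 13 counts in all of Huh7 P, had the fewest counts of the 7 members.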
